A study of Rattus norvegicus with 6 samples.

Results

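The genes described here are the ligands, receptors and regulators of transforming growth factor-β (TGF-β) in the rat liver. They were taken by their symbols, which are Tgfb1, Tgfb2 and Tgfb3 (ligands), Ltbp1 (latency), Tgfbr1, Tgfbr2 and Tgfbr3 (receptors), Smad7 and Bambi (inhibitors) and Tgfbi (a target). These 10 symbols matched 11 of the 19616 genes in the table, because Tgfbr1 is carried by 2 Ensembl identifiers.

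RNA depleted of ribosomal RNA was sequenced from the livers of 6 male Sprague-Dawley (SD) rats, with 1 library per rat. The 3 rats of the fibrosis group (FL2, FL5 and FL12) had been injected intraperitoneally with CCl4, a solvent that injures hepatocytes, in a 1:1 mixture with olive oil. Each dose was 2 mL/kg, and doses were given 2 times per week over 5 weeks. The 3 rats of the control group (CL5, CL6 and CL7) had received olive oil alone for the same time. The age of the rats is not given in the sources used here. The animal experiment held 10 CL and 15 FL rats, and how the sequenced ones were picked from them is not given in the sources used here.

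TGF-β is secreted in a latent form, bound to its own propeptide and to a latent TGF-β binding protein that anchors it in the matrix, and must be released before it can act. The free ligand joins the type II receptor Tgfbr2 to the type I receptor Tgfbr1, which phosphorylates Smad2 and Smad3, and these enter the nucleus with Smad4. In the injured liver the pathway is known for activating hepatic stellate cells, which then deposit collagen.

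Levels are in FPKM (fragment numbers corrected for transcript length and library size), a measure per length that is used here to compare genes. Such comparisons take reads to be placed equally well in every gene, which was not tested. Differences are on the log2(FPKM + 0.1) scale, FL minus CL, and come out smaller than the true change where FPKM are low. They were tested with limma over the 14864 genes whose mean reached 0.1 FPKM, with Benjamini-Hochberg adjustment over all of them. A gene was called a differentially expressed gene (DEG) where the adjusted p was under 0.05 and the change at least 2-fold. Where 3 values are given together, they stand for CL5, CL6 and CL7 in this order, or for FL2, FL5 and FL12. The error rests on the spread between 3 rats per group, which limma draws toward that of genes of similar level. No read counts were used, and the number of reads of each library is not given in the sources used here. Low values of the U6 genes put the depth relative to CL5 at 0.656 in CL6, 0.84 in CL7, 0.677 in FL2, 0.75 in FL5 and 0.677 in FL12. FPKM summed to 309425, 340467 and 315259 in the CL rats, and to 309226, 272350 and 272110 in the FL rats. The 10 most abundant genes of a rat made up 31.5%, 36.7% and 35.3% of its sum in the CL rats and 25.6%, 23.9% and 23.6% in the FL rats. Mitochondrial genes made up 4.45%, 5.75% and 6.21% in the CL rats and 6.96%, 7.56% and 6.64% in the FL rats. Both shares differed without overlap, and their part in the results below was not tested.

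The tissue label was checked against 7 hepatocyte markers, all of which were above 0 in the table. Their summed level was 41436 FPKM in CL5, 38991 in CL6, 39502 in CL7, 29782 in FL2, 32773 in FL5 and 31372 in FL12, with Alb (albumin) the most abundant. None of the 7 was a DEG by limma. Every FL rat read below every CL rat for 3 of them (Alb, Ttr and Hnf4a; background 4.78%) and above for 1 (Apoa1; background 35.7%), and the median log2 difference was -0.21, or -0.50 relative to the median gene. At an unadjusted p under 0.05, 2 were higher (Apoa1 and Tat; background 31.5%) and 0 lower in the FL group (background 4.04%). These p-values depended on the setting. Alb read 32272 ± 1010 FPKM in the CL and 24803 ± 572 FPKM in the FL group (SD over 3 rats each). Its log2 difference was -0.38, but limma, which draws the spread toward that of genes of similar level, gave a standard error of 0.98. The count of 0 lower therefore does not show that the levels of these markers were unchanged. Over the alternatives the lowest adjusted p from limma was 0.0789 for Alb, 0.0545 for Ttr and 0.0623 for Hnf4a, and 0.0218 for Apoa1 and 0.025 for Tat.

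Of the 11 TGF-β genes, 4 were upregulated DEGs (Tgfb1, Tgfb3, Ltbp1 and Bambi), against 9.29% of all genes tested. None was a downregulated DEG by limma, against 0.935% of all genes, and at an unadjusted p under 0.05, 8 were higher (background 31.5%) and 0 lower in the FL group (background 4.04%). With no limit on the fold change, 6 of the 11 had an adjusted p under 0.05 and a higher level in the FL group (background 16.9%), the additional ones being Smad7 and the main Tgfbr1 gene, whose adjusted p was under 0.05 in 5 of the 14 alternatives for each. In 8 of the 11, every FL rat read above every CL rat (background 35.7%), and in 0 every FL rat read below (background 4.78%). All 11 passed the filter on low values.

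The median log2 difference of the 11 was 0.61, against 0.29 over all genes tested. Over all genes it was 0.08 after median scaling and -0.04 after quantile normalization, so differences are given relative to the median gene as well. Relative to it, the median of the 11 was 0.32 without scaling, 0.31 with median scaling and 0.27 with quantile normalization.

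**Figure D1:**
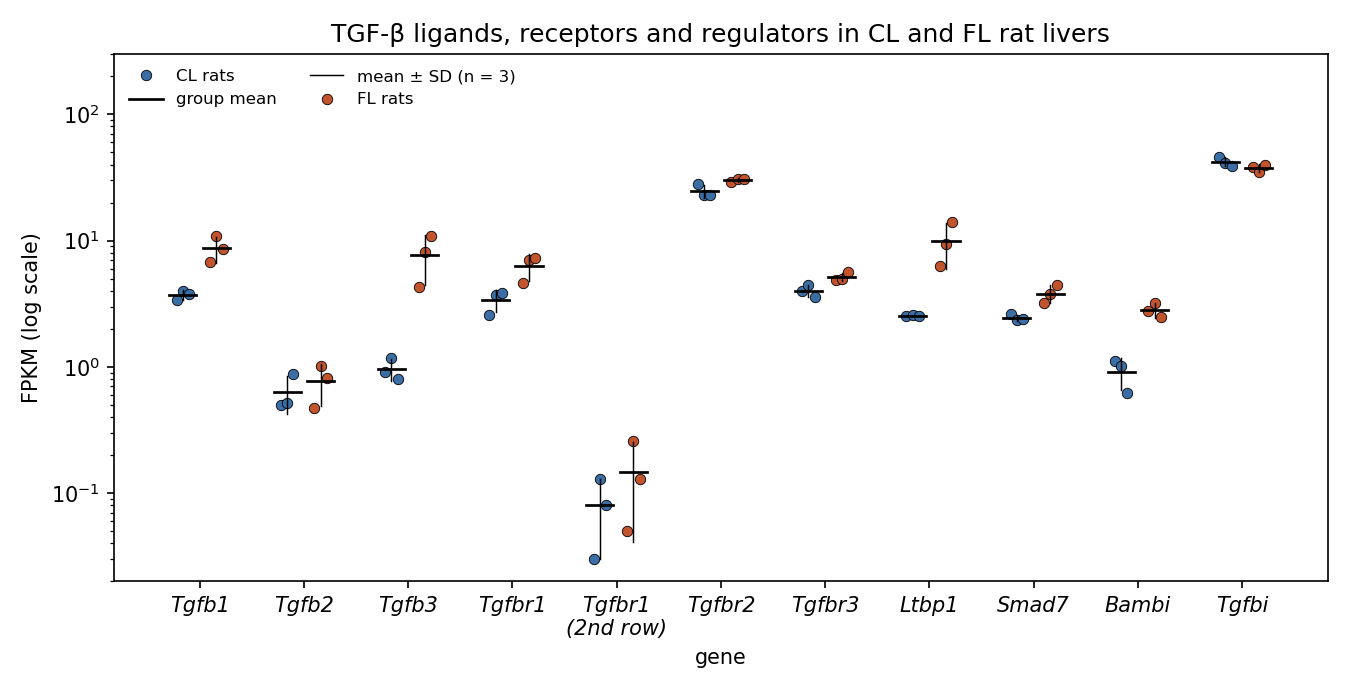
FPKM of the TGF-β ligands, receptors and regulators in each rat, on a log axis, with CL rats in blue and FL rats in orange; horizontal bars are group means and vertical lines the mean ± SD over 3 rats. The FL rats lie above all CL rats for 8 of the 11 genes, and the groups overlap for Tgfb2, the second Tgfbr1 gene and Tgfbi.

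Tgfb1 (ENSRNOG00000020652, chromosome 1) encodes the ligand that gives the family its name and is made by macrophages, platelets and stellate cells among others. Its level was 3.37 FPKM in CL5, 4.01 in CL6 and 3.78 in CL7, and 6.72 in FL2, 10.8 in FL5 and 8.54 in FL12. All FL rats lay above all CL rats, FL5 being the highest and FL2 the lowest of the FL rats. The mean level of the CL group was 3.72 ± 0.324 FPKM and that of the FL group 8.69 ± 2.04 FPKM (SD over 3 rats each). Tgfb1 rose by 1.18 on the log2 scale, or 2.26-fold (standard error 0.18, adjusted p = 0.00686 from limma), which was 0.89 relative to the median gene. The call was lost with either scaling, because the log2 difference fell under the 2-fold limit to 0.96 with median scaling (adjusted p = 0.0137) and 0.88 with quantile normalization (adjusted p = 0.0221). Over all 14 alternatives the adjusted p lay between 0.0042 and 0.0346.

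Tgfb3 (ENSRNOG00000009867, chromosome 6), the third isoform of the ligand, had the largest difference of the 11 genes. Its level was 0.91 FPKM in CL5, 1.18 in CL6 and 0.80 in CL7, and 4.25 in FL2, 8.10 in FL5 and 10.9 in FL12. The lowest FL rat (FL2) stood well above the highest CL rat (CL6), and FL12 was the highest. The CL group averaged 0.963 ± 0.196 FPKM and the FL group 7.73 ± 3.32 FPKM (SD over 3 rats each), a ratio of 8.03. Tgfb3 rose by 2.80 on the log2 scale (standard error 0.33, adjusted p = 0.00339 from limma), with 75 of the genes tested showing a larger increase. It was called in all 14 alternatives, with an adjusted p between 0.00113 and 0.0249.

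Tgfb2 (ENSRNOG00000002418, chromosome 13) read 0.50 FPKM in CL5, 0.52 in CL6 and 0.88 in CL7, and 0.47 in FL2, 1.02 in FL5 and 0.81 in FL12. The groups overlapped, FL2 being the lowest and FL5 the highest of the 6 rats. The log2 difference was 0.22 (95% interval -0.55 to 1.0, adjusted p = 0.661 from limma), and its sign turned with quantile normalization (-0.35). It was 0.026 with median scaling and depended on single rats, with 0.0117 without FL5, 0.098 without CL5, 0.45 without CL7 and 0.499 without FL2.

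The make-up of the ligand transcripts was compared within each rat, where scaling between rats has no part. Summed over the 3 ligands, the level was 4.78, 5.71 and 5.46 FPKM among the CL rats, and 11.4, 19.9 and 20.2 in the FL rats. Tgfb1 made up 70.5% of the sum in CL5, 70.2% in CL6 and 69.2% in CL7, and 58.7% in FL2, 54.2% in FL5 and 42.3% in FL12. Its share was thus lower in every FL rat than in any CL rat, with means of 70.0% ± 0.669 and 51.7% ± 8.51 (SD, n = 3). The exact two-sided permutation test gave p = 0.1, which is the smallest that 3 rats against 3 allow (0.15 after Benjamini-Hochberg adjustment over 6 such tests). The share of Tgfb3 averaged 18.1% ± 3.11 in the CL and 43.8% ± 8.73 in the FL group, and that of Tgfb2 11.9% ± 3.72 and 4.41% ± 0.615.

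Ltbp1 (ENSRNOG00000033090, chromosome 6) encodes a binding protein that holds latent TGF-β in the matrix. It read 2.53 FPKM in CL5, 2.55 in CL6 and 2.53 in CL7, and 6.23 in FL2, 9.34 in FL5 and 13.9 in FL12. The CL rats were nearly equal, whereas the FL rats were spread, with FL12 the highest and FL2 the lowest. The CL group averaged 2.54 ± 0.0115 FPKM and the FL group 9.83 ± 3.87 FPKM (SD over 3 rats each). Ltbp1 rose by 1.84 on the log2 scale, or 3.58-fold (standard error 0.26, adjusted p = 0.00519 from limma), and was called in all 14 alternatives (adjusted p between 0.00216 and 0.0312). Its log2 ratio to Tgfb1 within a rat was higher by 0.66 in the FL group, without overlap (exact permutation p = 0.1, adjusted 0.15). The ratio was 0.70 in FL12 against -0.11 in FL2 and -0.21 in FL5, and the difference was 0.37 without FL12.

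Tgfbr1 encodes the type I receptor kinase. The main gene (ENSRNOG00000007036, chromosome 5) read 2.59 FPKM in CL5, 3.73 in CL6 and 3.84 in CL7, and 4.6 in FL2, 7.07 in FL5 and 7.24 in FL12. The groups did not overlap, and FL2 lay nearer to the CL rats than to the other FL rats. The log2 difference was 0.87 (standard error 0.23, adjusted p = 0.0348 from limma), or 1.83-fold, which is under the 2-fold limit. Without FL2 it was 1.08 and Tgfbr1 became a DEG (adjusted p = 0.0135). The adjusted p was above 0.05 when any other rat was left out (0.0981, 0.0702 and 0.075 without CL5, CL6 and CL7, 0.124 without FL5 and 0.112 without FL12). It was 0.0539 with no filter, 0.0649 without the trend, 0.0896 with median scaling and 0.133 with quantile normalization, the highest of its alternatives.

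The second identifier with the symbol Tgfbr1 (ENSRNOG00000050760, chromosome 5) read 0.03, 0.13 and 0.08 FPKM among the CL rats, and 0.05, 0.26 and 0.13 in the FL rats. These values are close to the filter of 0.1 FPKM and overlap between the groups. The log2 difference was 0.40 (adjusted p = 0.587 from limma), and its sign turned with quantile normalization (-0.0398). It was 0.08 without FL5, 0.19 without CL5 and 0.72 without FL2. How reads were divided between both identifiers is not given in the sources used here, and the main gene is used wherever receptors are summed.

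Tgfbr2 (ENSRNOG00000013265, chromosome 8), the ligand-binding type II receptor, read 27.8 FPKM in CL5, 23.0 in CL6 and 22.8 in CL7, and 28.9 in FL2, 31.0 in FL5 and 30.8 in FL12. Every FL rat was above every CL rat, but CL5 and FL2 were close to each other. The log2 difference was 0.31 (95% interval 0.03 to 0.58, adjusted p = 0.109 from limma), which was 0.02 relative to the median gene.

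Tgfbr3 (ENSRNOG00000002093, chromosome 14) encodes betaglycan, a coreceptor that presents the ligand. It read 4.0 FPKM in CL5, 4.44 in CL6 and 3.57 in CL7, and 4.88 in FL2, 4.97 in FL5 and 5.64 in FL12. The groups did not overlap, and the log2 difference was 0.36 (95% interval 0.04 to 0.68, adjusted p = 0.106 from limma), or 0.07 relative to the median gene.

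Summed over the main Tgfbr1 gene, Tgfbr2 and Tgfbr3, the receptors read 34.4, 31.1 and 30.2 FPKM among the CL rats, and 38.4, 43.0 and 43.7 in the FL rats. Tgfbr2 took 80.9%, 73.8% and 75.5% of that sum in the CL rats and 75.3%, 72.0% and 70.5% in the FL rats. The groups overlapped in this share, since FL2 was above CL6 (exact permutation p = 0.2, adjusted 0.24).

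Smad7 (ENSRNOG00000018359, chromosome 18) encodes the inhibitory Smad that blocks the type I receptor and is itself induced by TGF-β. It read 2.61 FPKM in CL5, 2.34 in CL6 and 2.40 in CL7, and 3.22 in FL2, 3.78 in FL5 and 4.42 in FL12. The FL rats lay above the CL rats without overlap. The log2 difference was 0.61 (standard error 0.16, adjusted p = 0.037 from limma), or 1.52-fold, under the 2-fold limit, and 0.32 relative to the median gene. The adjusted p was 0.118 with median scaling, 0.331 with quantile normalization, 0.0531 with no filter and 0.0529 without the trend. It was 0.02 without FL2 and above 0.05 when any other rat was left out (0.076, 0.103 and 0.118 without CL5, CL6 and CL7, 0.106 without FL5 and 0.101 without FL12). Within a rat, the log2 ratio of Smad7 to Tgfb1 was -0.36, -0.75 and -0.63 in the CL rats and -1.04, -1.49 and -0.93 in the FL rats. It was lower in every FL rat than in any CL rat (difference -0.57, exact permutation p = 0.1, adjusted 0.15).

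Bambi (ENSRNOG00000016066, chromosome 17) encodes a pseudoreceptor that resembles the type I receptors but lacks the kinase domain. It read 1.11 FPKM in CL5, 1.01 in CL6 and 0.62 in CL7, and 2.79 in FL2, 3.19 in FL5 and 2.47 in FL12. The FL rats were all above the CL rats and close to each other, and FL12, the highest rat for Tgfb3 and Ltbp1, was the lowest FL rat here. Bambi rose by 1.55 on the log2 scale, or 2.93-fold (standard error 0.24, adjusted p = 0.00655 from limma). It was called in all 14 alternatives, with a log2 difference of at least 1.0 and an adjusted p between 0.00522 and 0.0373. Its log2 ratio to Tgfb1 overlapped between the groups and differed by 0.37 (exact permutation p = 0.4, adjusted 0.4). This difference depended on single rats, with 0.13 without CL7, 0.21 without FL2 and 0.59 without CL5, and was -0.0167 with a pseudocount of 1.

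Tgfbi (ENSRNOG00000012216, chromosome 17) encodes a matrix protein induced by TGF-β in many cells and had the highest level of the 11 genes. It read 46.2 FPKM in CL5, 41.3 in CL6 and 39.1 in CL7, and 37.9 in FL2, 34.6 in FL5 and 39.8 in FL12. The groups overlapped, since FL12 was above CL7. The log2 difference was -0.17 (95% interval -0.44 to 0.10, adjusted p = 0.327 from limma), or -0.46 relative to the median gene, and the lowest adjusted p of its alternatives was 0.0621, with median scaling. Over the alternatives the difference lay between -0.395 (median scaling) and -0.105 (without CL5). The log2 ratio of Tgfbi to Tgfb1 was lower by 1.35 in the FL group (difference -1.35, exact permutation p = 0.1, adjusted 0.15), without overlap.

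In the order of levels in the CL group, Tgfbi (42.2 FPKM) and Tgfbr2 (24.5 FPKM) stood apart from each other and from the rest. Tgfbr3 (4.0), Tgfb1 (3.72) and the main Tgfbr1 gene (3.39) followed, each overlapping with the next over the rats. Ltbp1 (2.54) and Smad7 (2.45) overlapped, as did Tgfb3 (0.963) with Bambi (0.913) and Bambi with Tgfb2 (0.633). In the FL group, Tgfbi (37.4 FPKM) and Tgfbr2 (30.2 FPKM) again stood apart, and Ltbp1 (9.83), Tgfb1 (8.69), Tgfb3 (7.73), Tgfbr1 (6.30) and Tgfbr3 (5.16) formed a run in which each overlapped with the next. Smad7 (3.81), Bambi (2.82) and Tgfb2 (0.767) were separate from their neighbours.

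The FL rats were not alike. FL2 was the lowest of the 3 in 9 of the 11 genes and the highest in 0, while FL5 was the highest in 5 and FL12 in 6. FL2 was also the lowest FL rat for the markers of stellate cells or myofibroblasts. Their summed level was 74.8, 78.5 and 71.9 FPKM among the CL rats, and 189, 501 and 464 in the FL rats, with Col3a1 the most abundant gene. Of these 8 markers, 5 were upregulated DEGs (Col1a1, Col3a1, Des, Pdgfrb and Lum), against 9.29% of all genes tested, and 0 stood at 0 in all rats. The other 3 were Acta2 (log2 difference 1.496, adjusted p = 0.0609), Reln (0.54, adjusted p = 0.0326) and Lrat (-0.07, adjusted p = 0.758). The call of Lum (adjusted p = 0.0178 from limma) was not kept throughout, since its adjusted p rose to 0.0793 over the alternatives. The 7 macrophage markers summed to 95.9, 93.6 and 93.8 FPKM among the CL rats and to 241, 220 and 153 in the FL rats, FL2 being the highest here, with Clec4f the most abundant in the CL group (mean 47.2 FPKM) and Marco in the FL group (51.5 FPKM, and Clec4f 50.1), 4 upregulated DEGs (Cd68, Marco, Csf1r and Lyz2; background 9.29%) and 0 at 0 in all rats. Single macrophage markers did not all follow the order of their sum. Among the FL rats, Marco and Clec4f were highest in FL2, Cd68, Cd163, Csf1r and Adgre1 in FL5, and Lyz2 in FL12. In whole liver, more cells of a type and more RNA per cell cannot be told apart, and the part of the stellate cell and macrophage markers in the changes of the TGF-β genes was not tested.

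Among the 10535 genes whose mean reached 1 FPKM, those whose profile over the 6 rats lay nearest to each upregulated member were found by the root mean square (RMS) distance of centred log2 values. Nearest to Tgfb1 were Cttnbp2nl (RMS distance 0.0736), Tnfaip8 (0.0758) and Igfbp7 (0.0773), the last of which read 22.3, 24.6 and 27.0 FPKM among the CL rats and 40.6, 67.6 and 52.7 in the FL rats. Nearest to Tgfb3 were Sfrp1 (0.107), which encodes a secreted Wnt antagonist, Adamtsl2 (0.111) and elastin (Eln, 0.197). Adamtsl2, whose product binds microfibrils, read 2.19, 2.27 and 1.81 FPKM among the CL rats and 8.88, 17.0 and 25.8 in the FL rats. Nearest to Ltbp1 were Ahnak (0.0995), Fam198b (0.12) and the clock gene Per2 (0.123). Nearest to Bambi were Arhgdib (0.121), the lysosomal protease gene Ctsz (0.126) and Cd63 (0.161).

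The other genes of the pathway were followed in lists by role, which held 94 symbols, 92 of them in the table and 84 tested. Of these 84, 21 were upregulated DEGs and 1 was a downregulated DEG, against 9.29% and 0.935% of all genes tested, which is the background for each list below as well. Their median log2 difference was 0.61, or 0.32 relative to the median gene. The number of upregulated ones was 13 without CL7, 13 without FL5 and 26 without FL2, while over all genes 1381 became 717, 682 and 1833. It was 14 with median scaling, 13 with a pseudocount of 1 and 9 with quantile normalization, while over all genes it was 826, 462 and 456. Among the genes named below, quantile normalization ended the calls of Ltbp3, Nrros, Acvrl1, Pmepa1, Vasn, Ctgf, Loxl2, Fst, Fstl1, Fstl3 and Id2. The pseudocount of 1 ended those of Nrros, Acvrl1, Pmepa1, Vasn, Ctgf, Fst and Fstl3, and median scaling those of Nrros, Pmepa1, Vasn, Ctgf, Fstl1, Fstl3 and Id2.

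**Figure D2:**
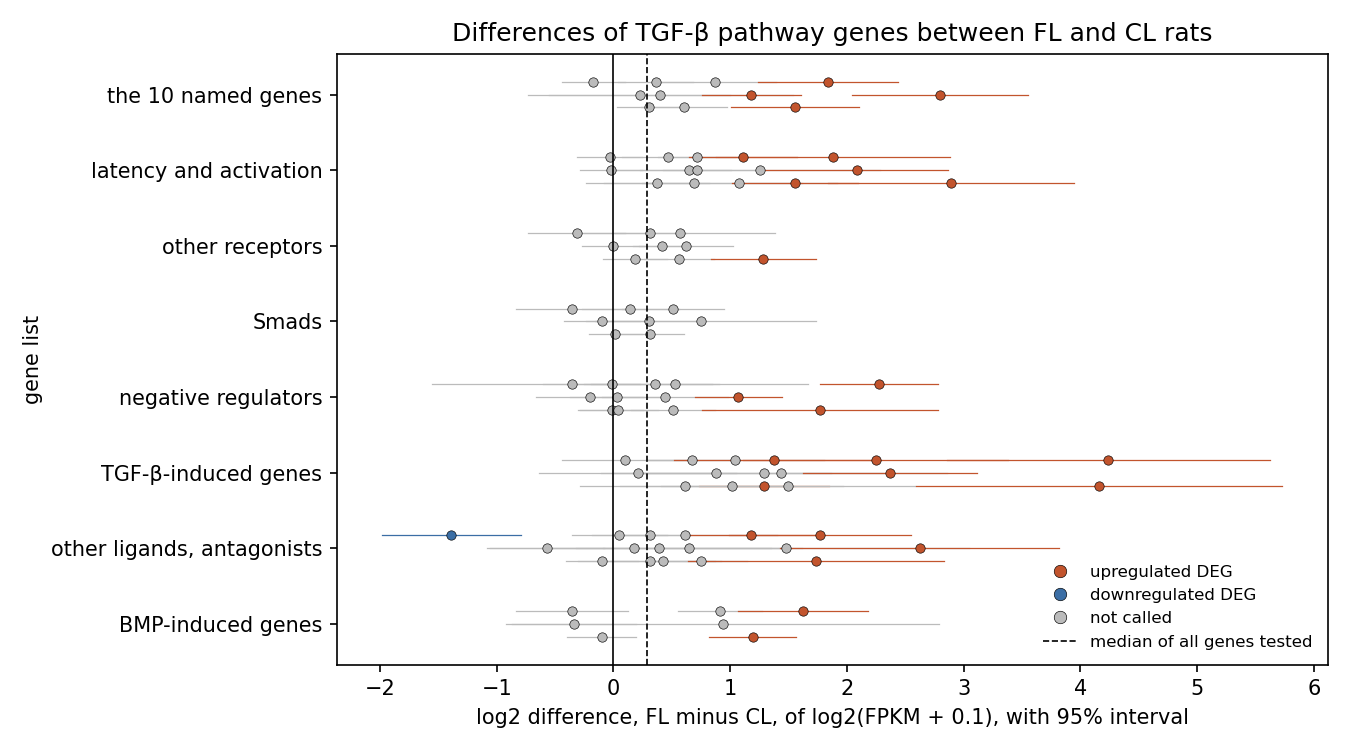
Log2 difference (FL minus CL, of log2(FPKM + 0.1)) of each tested gene of the TGF-β lists, with its 95% interval from limma; orange marks upregulated DEGs, blue the downregulated DEG, grey the rest, and the dashed line the median of all genes tested. The Smad list holds 0 DEGs, and Inhba is the only downregulated DEG of these lists.

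Of 15 genes of latency and activation tested, 5 were upregulated DEGs, 0 were downregulated, and the median log2 difference was 0.72. Relative to the median gene it was 0.43 without scaling, 0.47 with median scaling and 0.58 with quantile normalization. The relatives of Ltbp1 were among them. Ltbp2, whose product carries the family name but is not known to bind latent TGF-β, read 0.31, 0.50 and 0.41 FPKM among the CL rats and 1.61, 6.39 and 4.51 in the FL rats, and rose by 2.89 on the log2 scale (adjusted p = 0.00703 from limma). Ltbp4 read 2.76, 4.49 and 3.28 FPKM among the CL rats and 7.76, 10.99 and 12.8 in the FL rats (log2 difference 1.55, adjusted p = 0.00608). Fbn1, which encodes fibrillin-1, the microfibril protein of the matrix, read 2.26, 1.94 and 2.08 FPKM among the CL rats and 4.90, 12.6 and 12.5 in the FL rats (log2 difference 2.08, adjusted p = 0.00792). In all of them FL2 was the lowest FL rat, as for Ltbp1, and all were called in the 14 alternatives.

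Ltbp3 rose as well (log2 difference 1.88, adjusted p = 0.0236), but its adjusted p was 0.0773, 0.0664 and 0.057 without CL5, CL6 and CL7, 0.0927 without FL5 and 0.0755 without FL12. Nrros, which tethers latent TGF-β on macrophages, read 1.55, 1.35 and 0.99 FPKM among the CL rats and 3.21, 2.71 and 2.72 in the FL rats, with FL2 the highest. Its log2 difference of 1.11 (adjusted p = 0.0109) was under the 2-fold limit with median scaling (0.90), a pseudocount of 1 (0.76) or without CL7 (0.94), and the adjusted p was 0.0909 with quantile normalization. Furin, the protease that cleaves the propeptide, had the highest level of the list and read 66.5, 70.1 and 58.7 FPKM among the CL rats and 63.7, 67.4 and 59.7 in the FL rats (log2 difference -0.03, adjusted p = 0.873). Itgav, the integrin chain of the main activators of latent TGF-β, had a log2 difference of 0.47 (adjusted p = 0.093).

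Of 9 other receptors tested, 1 was an upregulated DEG (background 9.29%) and 0 were downregulated (background 0.935%). The 1 was Acvrl1 (ALK1), a type I receptor of endothelial cells, with 0.68, 0.70 and 0.68 FPKM among the CL rats and 1.63, 2.15 and 1.71 in the FL rats (log2 difference 1.29, adjusted p = 0.00634 from limma). It was under the 2-fold limit with quantile normalization (0.74) and with a pseudocount of 1 (0.74). Endoglin (Eng), a coreceptor of the same cells, had the highest level of the list, with 15.3 FPKM in the CL and 20.5 FPKM in the FL group (log2 difference 0.42, or 0.13 relative to the median gene, adjusted p = 0.0334). Over the alternatives the difference of Eng came down to 0.20 and its adjusted p up to 0.242. The 5 endothelial markers in the table, with Kdr the most abundant in the CL group (mean 21.7 FPKM), Lyve1 in the FL group (21.3 FPKM, and Kdr 19.0) and 0 at 0 in all rats, summed to 71.4, 69.6 and 61.9 FPKM among the CL rats and to 85.2, 68.0 and 77.4 in the FL rats. None was a DEG by limma, and at an unadjusted p under 0.05, 2 were higher (Stab2 and Cdh5; background 31.5%) and 0 lower (background 4.04%). Stab2 was higher in every FL rat than in any CL rat and had an adjusted p of 0.0143 at a log2 difference of 0.75, under the 2-fold limit. The sums overlapped between the groups, and the part of these markers in the change of Acvrl1 was not tested.

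None of the 8 genes of the Smad list, which includes Zfyve9, not itself a Smad, was a DEG by limma. At an unadjusted p under 0.05, 2 were higher (Smad3 and Smad5, background 31.5%) and 0 lower (background 4.04%). The median log2 difference of the 8 was 0.23, or -0.06 relative to the median gene. The sign of this median turned with quantile normalization (-0.09). Smad4, the common partner, had the highest level and read 13.7, 13.6 and 13.8 FPKM among the CL rats and 13.9, 13.7 and 13.9 in the FL rats. Smad3 read 2.88, 2.25 and 2.76 FPKM among the CL rats and 3.25, 4.77 and 3.46 in the FL rats, without overlap (log2 difference 0.51, adjusted p = 0.095). Smad9 had the largest positive difference (log2 difference 0.75, adjusted p = 0.243) at under 0.3 FPKM in each rat, and Smad6, the inhibitory Smad of the BMP (bone morphogenetic protein) branch, the largest negative one (-0.35, adjusted p = 0.257).

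Among 13 negative regulators tested, 3 were upregulated DEGs and 0 downregulated, with a median log2 difference of 0.36 (0.07 relative to the median gene, and -0.02 before this correction with quantile normalization). Decorin (Dcn), a matrix proteoglycan that binds TGF-β, read 2.50, 2.20 and 2.75 FPKM among the CL rats and 8.74, 13.7 and 15.7 in the FL rats. It rose by 2.28 on the log2 scale (adjusted p = 0.00173 from limma) and was called in the 14 alternatives. Vasorin (Vasn), which also binds the ligand, rose by 1.07 (adjusted p = 0.00626) and was under the 2-fold limit with either scaling (0.85 and 0.74), a pseudocount of 1 (0.88) and without FL5 (0.93). Pmepa1, a target of the pathway that sequesters Smads, read 0.09, 0.48 and 0.29 FPKM among the CL rats and 0.80, 1.09 and 1.48 in the FL rats (log2 difference 1.77, adjusted p = 0.0302). This call was lost in 8 of 13 alternatives, the adjusted p being 0.0636 without CL5, 0.086 without CL7, 0.0965 without FL5 and 0.101 without FL12. The ubiquitin ligases and nuclear repressors of the list (Smurf1, Smurf2, Nedd4l, Trim33, Ski, Skil, Tgif1 and Tgif2) were not DEGs. Smurf1 was higher in every FL rat than in any CL rat, at a log2 difference of 0.51, or 0.22 relative to the median gene. Its adjusted p was 0.0558 from limma and down to 0.044 over the alternatives, and the groups overlapped for the others.

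Of 16 genes known to be induced by TGF-β that were tested, 6 were upregulated DEGs and 0 downregulated, with a median log2 difference of 1.29. Relative to the median gene this was 0.998, and 0.99 and 0.93 after median scaling and quantile normalization. The difference was positive in 16 of them without scaling, in 14 after median scaling and in 15 after quantile normalization. Col1a1, a chain of type I collagen, read 2.12, 3.77 and 2.12 FPKM among the CL rats and 17.0, 101 and 73.7 in the FL rats (log2 difference 4.24, adjusted p = 0.00519 from limma). Col3a1 rose by 2.37 (adjusted p = 0.0049), and both collagens belong to the stellate cell markers as well. Postn, which encodes the matrix protein periostin, read 0.01, 0.07 and 0.05 FPKM among the CL rats and 0.66, 5.44 and 3.72 in the FL rats (log2 difference 4.16, adjusted p = 0.008). In each of these FL2 was the lowest FL rat.

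Loxl2, a collagen cross-linking enzyme, rose by 1.29 on the log2 scale (adjusted p = 0.0119 from limma, and 0.052 without CL7). Ctgf rose from 0.38 to 1.14 FPKM in the group means (log2 difference 1.37, adjusted p = 0.0388), a call lost in 9 of 13 alternatives, with an adjusted p of 0.113 without CL5, 0.107 without CL6, 0.124 without FL5 and 0.121 without FL12. Acta2, the smooth muscle actin of activated stellate cells, read 3.85, 2.62 and 2.68 FPKM among the CL rats and 3.87, 17.3 and 9.59 in the FL rats, so that FL2 was level with CL5 (adjusted p = 0.0609). Fn1 (fibronectin), which hepatocytes secrete in quantity, had the highest level, 376 FPKM in the CL and 415 FPKM in the FL group (log2 difference 0.10, adjusted p = 0.782). Col1a2, the partner chain of Col1a1, was listed at no more than 0.18 FPKM in any rat and was not tested.

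Other ligands of the superfamily and their antagonists held 4 upregulated DEGs and 1 downregulated DEG of 17 tested. Inhba, which encodes the subunit of activin A, read 15.2, 13.9 and 11.7 FPKM among the CL rats and 7.58, 3.51 and 4.96 in the FL rats. Every FL rat was below every CL rat, and FL2 was the nearest to them. Inhba fell by 1.39 on the log2 scale (adjusted p = 0.0117 from limma) and was called in the 14 alternatives. Follistatin (Fst), which binds activin, read 0.06, 0 and 0.02 FPKM among the CL rats and 1.21, 0.83 and 0.27 in the FL rats (log2 difference 2.63, adjusted p = 0.0141, and 0.0554 without CL7 and 0.0618 without FL5). Bmp7 read 0.59, 1.22 and 1.12 FPKM among the CL rats and 2.21, 4.17 and 4.37 in the FL rats (log2 difference 1.77, adjusted p = 0.0126, and 0.0618 without FL5 and 0.0529 without FL12).

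The follistatin-related genes Fstl1 and Fstl3 were upregulated by 1.18 (adjusted p = 0.017 from limma) and 1.74 (adjusted p = 0.0403) on the log2 scale. The adjusted p of Fstl1 was 0.0558, 0.0589 and 0.0597 without CL5, CL6 and CL7, 0.0718 without FL5 and 0.0645 without FL12. That of Fstl3, at under 1 FPKM in each rat, was 0.111, 0.105 and 0.0511 without CL5, CL6 and CL7, 0.0963 without FL5 and 0.111 without FL12. Both were therefore called with all rats and lost when any of these 5 was left out.

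Of 7 genes induced by BMP signalling, 2 were upregulated DEGs and 0 downregulated. The log2 difference was positive in 4 and negative in 3 of them. Their median was 0.91, or 0.62 relative to the median gene. Id1, an inhibitor of helix-loop-helix factors, read 0.67, 0.79 and 0.84 FPKM among the CL rats and 2.60, 1.89 and 3.39 in the FL rats (log2 difference 1.62, adjusted p = 0.00593 from limma, called in the 14 alternatives). Id2 read 8.14, 5.90 and 7.12 FPKM among the CL rats and 19.0, 14.2 and 15.4 in the FL rats (log2 difference 1.19, adjusted p = 0.0049, and under the 2-fold limit at 0.97 with either scaling). In these genes FL5, not FL2, was the lowest FL rat. Hamp, which encodes hepcidin, had the highest level of the list and varied widely within both groups, with 91.2, 243 and 390 FPKM among the CL rats and 1009, 115 and 525 in the FL rats (adjusted p = 0.431).

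The promoters of the 4 upregulated members are shown. For all 10 symbols a RefSeq window of the GRCr8 build was found, from 250 bases before to 50 bases after the start of the gene. The windows were searched on both strands for letters known from Smad binding, GTCTAGAC (in 0.197% of 33469 promoters of this length) and CAGACA (21.1%), which none of the 10 holds. Further letters were searched after the sequences had been read. These were TGACTCA (4.63% of promoters) and TATAAA (14.2%), held by none of the 10, TGACGTCA (1.83%), held by Ltbp1 at 108 bases before the start, and GGGCGG (33.1%), held by 6 (Tgfbr1, Tgfbr2, Tgfbr3, Smad7, Bambi and Tgfbi). Capitals mark the TGACGTCA of Ltbp1 and the GGGCGG of Bambi, which lies on the opposite strand and reads CCGCCC. A match describes the sequence, and the absence of one says only that these letters are not in the window.
Tgfb1, chr1:90324062-90324361, + strand: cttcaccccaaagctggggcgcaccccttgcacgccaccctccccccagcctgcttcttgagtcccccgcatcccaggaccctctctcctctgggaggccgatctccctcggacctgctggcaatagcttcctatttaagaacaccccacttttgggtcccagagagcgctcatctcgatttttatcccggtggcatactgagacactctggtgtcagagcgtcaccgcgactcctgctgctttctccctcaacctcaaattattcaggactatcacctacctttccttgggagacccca
Tgfb3, chr6:111456897-111457196, - strand: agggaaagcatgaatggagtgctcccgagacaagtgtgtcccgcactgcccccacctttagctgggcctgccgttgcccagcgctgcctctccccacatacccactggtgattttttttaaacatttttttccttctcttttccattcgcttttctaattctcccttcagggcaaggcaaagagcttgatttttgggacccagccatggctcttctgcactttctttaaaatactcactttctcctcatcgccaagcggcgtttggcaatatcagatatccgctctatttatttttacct
Ltbp1, chr6:26177252-26177551, - strand: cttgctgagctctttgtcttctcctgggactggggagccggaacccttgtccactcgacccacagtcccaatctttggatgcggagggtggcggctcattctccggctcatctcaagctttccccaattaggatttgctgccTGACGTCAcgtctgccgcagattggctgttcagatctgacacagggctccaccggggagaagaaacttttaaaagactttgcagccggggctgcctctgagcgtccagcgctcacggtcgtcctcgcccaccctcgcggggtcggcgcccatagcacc
Bambi, chr17:58820954-58821253, - strand: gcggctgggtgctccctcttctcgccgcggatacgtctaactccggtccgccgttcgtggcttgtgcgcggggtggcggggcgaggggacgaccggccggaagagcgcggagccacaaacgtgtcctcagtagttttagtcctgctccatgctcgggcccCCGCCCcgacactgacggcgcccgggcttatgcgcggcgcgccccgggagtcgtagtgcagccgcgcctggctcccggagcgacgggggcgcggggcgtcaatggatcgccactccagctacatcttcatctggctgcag
The share of G and C in these windows was 57.7% in Tgfb1, 47.7% in Tgfb3, 60.0% in Ltbp1 and 70.3% in Bambi, against a median of 51.7% over all promoters.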

How the data were processed

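TopHat2 had aligned the trimmed reads with 4 mismatches allowed, and uniquely placed reads had been counted per gene. The authors deposited these values as FPKM with 2 decimals, rat by rat, and state no scaling between rats. The genome is named as GRCh38, whereas the identifiers in the table are Ensembl's for the rat, so no position from the table is printed except the chromosome. Rats were grouped by their labels, and 2 further columns of values, which match no sample, were not used.

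Groups were compared with limma (trend option) on log2(FPKM + 0.1), for genes whose mean reached 0.1 FPKM. The procedure was tested on simulated data. Shares and ratios within a rat were compared by exact two-sided permutation tests, whose p cannot go below 0.1. P-values from limma rest on the spread between these rats, drawn toward that of genes of similar level. Those of the permutation tests rest on these rats alone. Alternatives changed the pseudocount (1, 0.01), the filter (none, a mean of 1 FPKM), the scaling (median, quantile), the prior of limma (no trend, robust) and the fold limit (none), or left out each rat in turn. Versions were Python 3.11.15, matplotlib 3.10.9, pandas 2.3.3, numpy 2.4.6, limma 3.58.1 and R 4.3.3.

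The TGF-β genes, the lists and the markers were chosen with earlier results of these data known. The genes named were all 10 symbols, DEGs of each pathway list (where a list has none, the gene of highest level and the 2 with the largest differences), and the 3 nearest profiles of each upregulated member. An exception is 1 DEG of the pathway lists, which is counted but not reported here. Smad6, Zfyve9, Itgav, Furin, Eng, Acta2, Fn1, Col1a2, Hamp and the nuclear repressors and ubiquitin ligases were named after their values were seen. So were the single markers. Motifs other than GTCTAGAC and CAGACA were added after the sequences were read. A comparison of the ligands' protein sequences had been planned and was not done.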

Additional observations from a re-analysis of the deposited data

How the results depend on the processing

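No paired analysis was possible, because the CL and FL rats were different animals. CL5 and FL5 have only the number in their labels in common. Tgfb3, Ltbp1 and Bambi were upregulated DEGs in all 14 alternatives, and Tgfb1 in 12 of them, with log2 differences under the 2-fold limit in the others (0.96 with median scaling and 0.88 with quantile normalization). Upregulated DEGs over all genes numbered 1381, against 462 with a pseudocount of 1, 854 at a mean of at least 1 FPKM, 826 with median scaling, 456 with quantile normalization, 2518 with no limit on the fold change, and between 682 and 1833 with each rat left out. Downregulated DEGs numbered 139, against 72 with a pseudocount of 1, 227 with quantile normalization, 288 with no limit on the fold change, and between 80 and 159 with each rat left out. The pathway lists held 21 upregulated DEGs, 13 with a pseudocount of 1, 9 with quantile normalization and between 13 and 26 with each rat left out. The median log2 difference of the TGF-β genes was 0.61, with 0.87 at a mean of at least 1 FPKM, where fewer genes were tested, and 0.23 with quantile normalization. The direction turned for Tgfb2 (-0.35) and the second Tgfbr1 gene (-0.0398) with quantile normalization, and for the ratio of Bambi to Tgfb1 (-0.0167) with a pseudocount of 1. Except for the smaller number of genes tested, the cause of these changes was not tested. With 3 rats per group the exact tests cannot pass a threshold of 0.05, and genes near 0.1 FPKM, such as the second Tgfbr1 gene, rest on few reads.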

Other observations

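Markers of other cells moved as follows, and their part in the TGF-β results was not tested. The 6 cholangiocyte markers summed to 5.75, 10.6 and 6.32 FPKM in the CL rats and to 12.7, 68.7 and 42.4 in the FL rats. Most of the sum in FL5 and FL12 was Spp1, the list's 1 upregulated DEG (background 9.29%), which other cells of the injured liver also express. The adjusted p of Spp1 was 0.0119 from limma and up to 0.0537 over the alternatives. At an unadjusted p under 0.05, 2 of the 6 markers were higher (Spp1 and Cftr; background 31.5%) and 0 lower (background 4.04%). The log2 differences of Cftr (1.46), Sox9 (1.07) and Epcam (0.33) were positive and those of Krt7 (-0.82) and Krt19 (-0.01) negative, each with an adjusted p above 0.05. The 5 cycling markers, with Mki67 the most abundant, summed to 2.39, 4.56 and 2.90 FPKM in the CL rats. In the FL rats they summed to 4.04, 18.4 and 15.7, with 2 upregulated DEGs (background 9.29%). FL2 was thus the lowest FL rat for these lists too. The 2 cycling DEGs were Mki67 (adjusted p = 0.0478 from limma, up to 0.157 over the alternatives) and Birc5 (0.0187, up to 0.0791).

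Of the platelet markers 4 were in the table, summing to 4.10, 2.61 and 2.85 FPKM in the CL rats and to 5.0, 6.66 and 7.58 in the FL rats. Pf4, a platelet chemokine, was the 1 upregulated DEG of the 2 tested (background 9.29%). Its adjusted p was 0.0101 from limma and up to 0.0519 over the alternatives. The 8 lymphocyte markers summed to 1.63, 1.52 and 2.69 FPKM in the CL rats and to 4.8, 4.6 and 2.79 in the FL rats. Of 6 tested, 1 was an upregulated DEG (Cd2, background 9.29%). For Cd2 the adjusted p was 0.0233 from limma and up to 0.191 over the alternatives. The 5 erythroid markers, led by Hbb, summed to 91.9, 163 and 116 FPKM in the CL rats and to 130, 50.01 and 52.03 in the FL rats, with 0 DEGs by limma, and 0 higher (background 31.5%) and 1 lower (background 4.04%) at an unadjusted p under 0.05. The 4 mesothelial markers summed to 32.4, 25.7 and 27.2 FPKM in the CL rats and to 36.3, 59.9 and 57.8 in the FL rats, mostly from Krt8, which hepatocytes express as well, with 0 DEGs by limma, 2 higher (Krt8 and Wt1; background 31.5%) and 0 lower (background 4.04%) at an unadjusted p under 0.05. The log2 differences of Msln (-1.01) and Upk3b (-0.71) were negative, with an adjusted p above 0.05. Of the pancreas markers 2 were in the table, summing to at most 1.09 FPKM in any rat.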
